A study of Mus musculus with 15 samples.

Results

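The 10 genes described here mark endothelial cells of the liver: Stab1, Stab2, Lyve1, Clec4g, Fcgr2b, Kdr, Tek, Pecam1, Cdh5 and Vwf. They were taken as a fixed list of gene symbols, and all 10 were found among the 37991 gene identifiers of the count table. All 10 also passed the filter on low counts, which left 14258 genes for testing. The libraries were made from RNA of whole liver from female C57BL/6 mice, 1 library per mouse and 5 per group. Young WT mice were 90 days old and carried intact S6K1, the kinase encoded by Rps6kb1. Old WT mice were 600 days old with the same genotype, and the old KO group, also 600 days old, had S6K1 deleted in all tissues. WT and KO animals came from heterozygous breeding, and no young KO libraries were analysed here, so an effect of genotype could be read at 600 days only.

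Liver sinusoidal endothelial cells line the small vessels between the hepatocyte plates. They are fenestrated, lack a continuous basement membrane and take up waste molecules from blood through a set of scavenger receptors. Stab1 and Stab2 encode stabilin-1 and stabilin-2, large scavenger receptors, of which stabilin-2 clears hyaluronan. Lyve1 encodes a hyaluronan receptor that is also a classical marker of lymphatic vessels. Clec4g encodes the C-type lectin LSECtin, and Fcgr2b encodes the inhibitory Fc receptor that removes small immune complexes in the sinusoid and is also made by B cells and macrophages. Kdr encodes the main signalling receptor for VEGF, and Tek encodes Tie2, the receptor for angiopoietins. Pecam1 and Cdh5, encoding CD31 and VE-cadherin, are adhesion genes of the endothelial cell junction in all vessels, and platelets and leukocytes also carry CD31. Vwf encodes von Willebrand factor, a haemostatic protein of large-vessel endothelium and platelets. In whole-liver RNA, fewer endothelial cells and less RNA of a gene per endothelial cell cannot be told apart.

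On the mm9 build (NCBIM37, GENCODE M1 gene models), Stab1 lies on the minus strand at chr14:31952199-31981827 in 58 exon blocks, and its exons overlap Nt5dc2 on the opposite strand. Stab2 lies on the minus strand at chr10:86303943-86470770 in 72 exon blocks. Lyve1 (chr7:117994121-118006467), Clec4g (chr8:3707064-3720651), Fcgr2b (chr1:172890689-172906678), Kdr (chr5:76328852-76374483) and Pecam1 (chr11:106515531-106611942) are also on the minus strand. Cdh5 (chr8:106625525-106668402), Tek (chr4:94405980-94541667) and Vwf (chr6:125496792-125636697) are on the plus strand. All 10 are annotated as protein-coding. The reads of some members may not all be their own. Of the 1650 distinct 50-base stretches of Fcgr2b, 166 (10.1%) also occur in Fcgr3, against 0.746% for Stab1 with Nt5dc2 and 0 for the others, in a search of protein-coding transcripts only. Clec4g is the member that shares exon bases with another gene on its own strand: the pseudogene Gm9814 covers 390 of its 2462 exon bases (15.8%) and had 0 counts over the 15 libraries. Clec4g (146 bases with Gm16553) and Stab2 (141 bases with Gm16268) also share exon bases with genes on the opposite strand. How reads on shared bases were assigned is not given in the sources used here, so the levels of Fcgr2b and Clec4g are uncertain to that extent.

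The sequence before the start site is shown for Stab1 and Stab2, which were called lower in old WT liver, and for Clec4g and Fcgr2b, which were not called. RefSeq promoter windows on GRCm38.p6 were matched for 6 of the 10 members (these 4, Kdr and Tek). The runs are printed 5′ to 3′ on the strand of the gene, up to the earliest start in GENCODE M1 or RefSeq: Stab1 is chr14:31168642-31168891, Stab2 is chr10:87008026-87008192, Clec4g is chr8:3720652-3720901 and Fcgr2b is chr1:170976128-170976321, all on the minus strand. Capitals mark a match to one of the searched motifs.
Stab1: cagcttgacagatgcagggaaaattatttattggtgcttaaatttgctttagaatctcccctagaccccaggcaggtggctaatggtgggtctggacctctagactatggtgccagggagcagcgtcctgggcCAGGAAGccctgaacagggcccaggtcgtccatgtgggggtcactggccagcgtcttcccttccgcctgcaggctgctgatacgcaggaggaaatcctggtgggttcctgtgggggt
Stab2: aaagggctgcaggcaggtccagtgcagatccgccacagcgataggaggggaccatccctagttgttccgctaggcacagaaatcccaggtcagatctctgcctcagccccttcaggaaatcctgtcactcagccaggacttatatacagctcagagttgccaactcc
Clec4g: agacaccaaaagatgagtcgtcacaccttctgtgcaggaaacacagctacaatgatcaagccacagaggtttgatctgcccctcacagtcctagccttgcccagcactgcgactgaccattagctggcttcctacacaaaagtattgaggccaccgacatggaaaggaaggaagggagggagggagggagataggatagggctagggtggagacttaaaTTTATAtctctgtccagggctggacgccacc
Fcgr2b: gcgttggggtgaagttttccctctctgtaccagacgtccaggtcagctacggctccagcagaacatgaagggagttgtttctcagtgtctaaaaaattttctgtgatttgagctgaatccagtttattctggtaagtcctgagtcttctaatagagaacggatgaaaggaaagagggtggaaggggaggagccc
For all 6, both strands of the 250 bases before the RefSeq start were searched for 5 short motifs, a window that runs past the end of the printed sequence for Stab2 (167 bases printed) and Fcgr2b (194 bases printed). The ETS-type motif CAGGAAG was found 1 time in Stab1, beginning 117 bases before the start, and 10.8% of the 32851 windows in the table held it. The TATA box TATAAA was found 1 time in Clec4g on the opposite strand (TTTATA as printed), 31 bases before the start, and 12.4% of windows held it. The other ETS-type motif, CCGGAAG, which shares its last 5 letters with the one above and is held by 6.91% of windows, was in none of the 6 members. The same was true of the GATA-type motif AGATAA, held by 9.99% of windows, and of the forkhead-type motif TGTTTAC, held by 3.17%. The windows of Stab2, Fcgr2b, Kdr and Tek held none of the 5, a statement about these letters in these windows only.

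Total counts ranged from 21801754 to 38065359 per library. Rps6kb1 stood at 33.3 to 41.4 CPM in young WT, 34.6 to 45.4 CPM in old WT and 15.2 to 20.8 CPM in old KO libraries, where CPM is the read count of a gene relative to library size after scaling by trimmed mean of M values (TMM). The second principal component, with 13.1% of the variance, set old WT 7 apart at -44.8, against -16.1 to 29.96 for the other 14 libraries, so results that rest on it are also given without it. The p-values below weigh differences between groups against the spread between these mice within groups.

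Per length of exon, the sinusoidal genes Clec4g and Fcgr2b were the most abundant members in young WT liver. Clec4g stood at 13.4 ± 2.996 RPKM and Fcgr2b at 10.3 ± 3.56 RPKM (SD, n = 5), where RPKM is CPM per kilobase of exon. Kdr (7.91 ± 2.45), Stab2 (7.08 ± 1.88), Cdh5 (6.26 ± 1.94), Lyve1 (6.16 ± 2.01), Stab1 (5.09 ± 0.832) and Pecam1 (4.90 ± 1.04 RPKM) came next. From Clec4g down to Pecam1, each neighbour in this order differed from the next by less than the larger of their SDs. Tek followed at 2.80 ± 0.894 RPKM, and Vwf was the lowest at 0.458 ± 0.0870 RPKM, and both of these steps were larger than the SDs on either side. All 10 were therefore present in every group, and the haemostatic large-vessel gene Vwf was the least abundant of them. In old KO liver the order of the ends was the same, with Clec4g at 15.3 ± 0.657 and Vwf at 0.467 ± 0.139 RPKM, whereas Lyve1 stood at 2.45 ± 1.03 RPKM, next to Tek at 1.96 ± 0.227 RPKM.

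**Figure D1:**
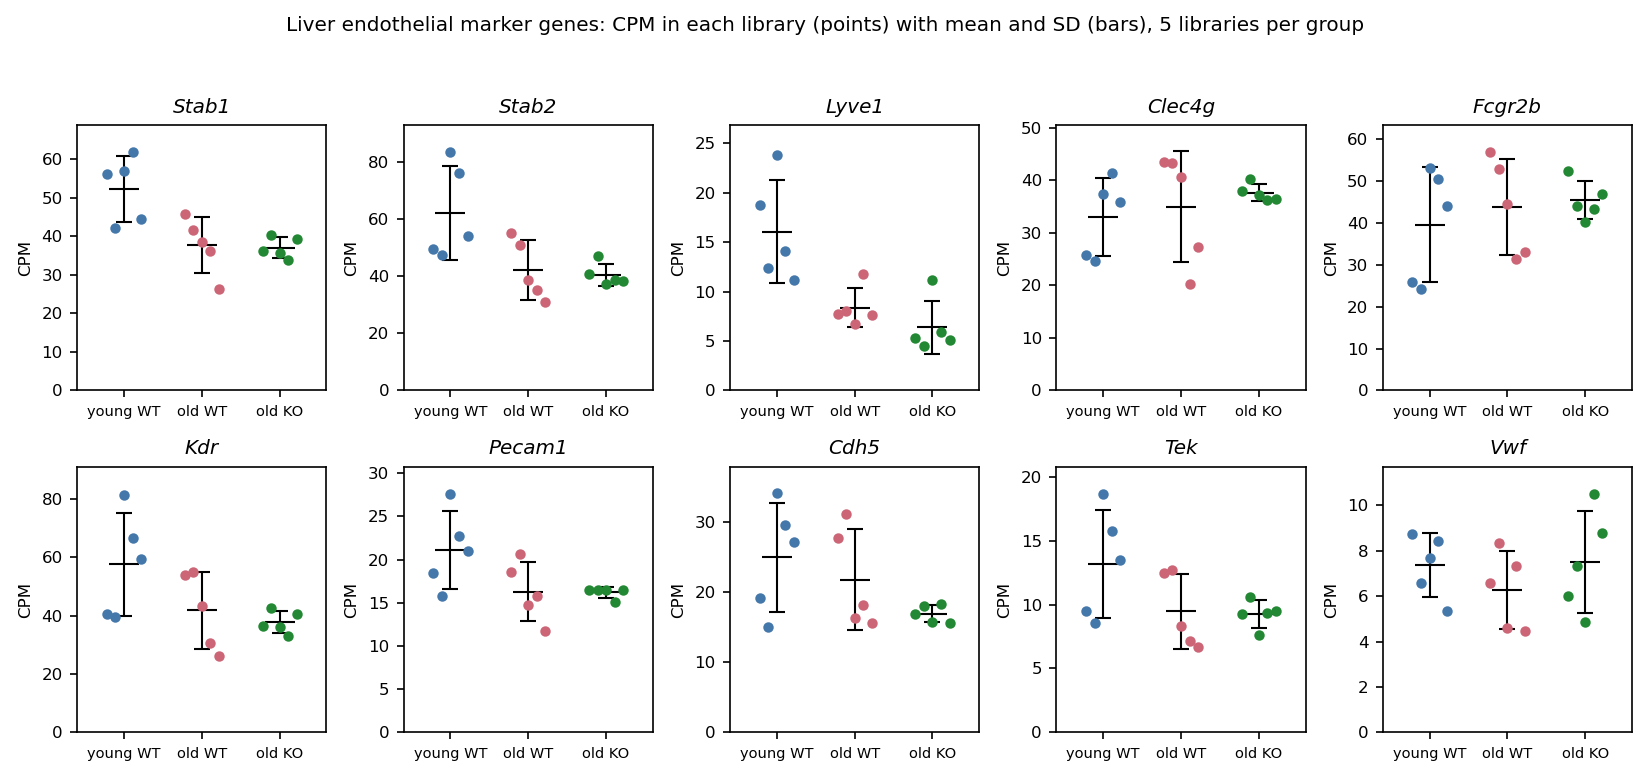
Each panel plots CPM (y axis, from 0) of 1 marker gene in the 15 libraries (points) by group, with the group mean and SD as bars. Mean CPM is higher in young WT than in both old groups for Stab1, Stab2, Lyve1, Kdr, Tek, Pecam1 and Cdh5. For Clec4g, Fcgr2b and Vwf it is not. The young WT and old WT points overlap for every gene, and the old KO points lie close together for most genes.

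The comparison of old WT with young WT asked how these genes differed between 90 and 600 days of age. Of the 10 members, 3 fell: the scavenger and hyaluronan receptor genes Stab1, Stab2 and Lyve1. None rose, in a contrast in which edgeR's quasi-likelihood test called 18.8% of all tested genes in either direction and 8.91% as lower in old WT (adjusted p under 0.05). Of the other 7, 5 had a log2 fold change below 0 and 2, Clec4g and Fcgr2b, above it. The median log2 fold change of the 10 was -0.42, beside 0.008 over all tested genes.

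Stab1 stood at 56.2, 42.2, 57.0, 62.0 and 44.6 CPM in young WT 1, 2, 3, 4 and 6, at 45.8, 41.5, 38.6, 36.3 and 26.3 CPM in old WT 1, 4, 5, 7 and 10, and at 36.2, 40.5, 35.7, 33.8 and 39.2 CPM in old KO 1, 2, 4, 5 and 6. All 5 old WT libraries were below the young WT mean, although old WT 1 was above young WT 2 and 6, so the ranges overlapped. From 52.4 ± 8.56 to 37.7 ± 7.30 CPM (SD, n = 5), the log2 fold change was -0.47 (SE 0.133, adjusted p = 0.0214). The call was lost without young WT 1 (-0.45, adjusted p = 0.0524) and held in the other 14 fits that each left out 1 library. With the replicate number as a block in the edgeR fit it was also lost (-0.28, adjusted p = 0.274).

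Stab2 stood at 49.5, 47.4, 83.3, 75.9 and 54.0 CPM in young WT 1, 2, 3, 4 and 6, at 55.1, 50.8, 38.7, 35.0 and 31.0 CPM in old WT 1, 4, 5, 7 and 10, and at 40.7, 47.1, 37.2, 38.7 and 38.3 CPM in old KO 1, 2, 4, 5 and 6. Young WT 3 and 4 were the high libraries, and old WT 1 and 4 lay within the young WT range. The log2 fold change was -0.56 (SE 0.175, adjusted p = 0.0358), from 62.0 ± 16.4 to 42.1 ± 10.4 CPM (SD, n = 5). This call was the least firm of the 3. It was lost without young WT 3 (-0.42, adjusted p = 0.0991), young WT 4 (-0.49, 0.0803), old WT 5 (-0.53, 0.0780), old WT 7 (-0.49, 0.0729) or old WT 10 (-0.47, 0.0805). The same held when the old KO libraries were left out of the fit (-0.57, 0.0677). With the replicate number as a block it was lost too (-0.20, adjusted p = 0.549).

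Lyve1 had the largest change of the members. It stood at 18.8, 12.4, 23.9, 14.1 and 11.2 CPM in young WT 1, 2, 3, 4 and 6, at 7.78, 8.07, 6.68, 11.7 and 7.68 CPM in old WT 1, 4, 5, 7 and 10, and at 5.32, 4.54, 11.1, 5.91 and 5.06 CPM in old KO 1, 2, 4, 5 and 6. Only old WT 7 reached the young WT range, where it passed young WT 6. From 16.1 ± 5.23 to 8.39 ± 1.94 CPM (SD, n = 5), the log2 fold change was -0.94 (SE 0.249, adjusted p = 0.0167), so the fitted level fell by 47.9%. The call held in all 15 fits that left out 1 library, with adjusted p up to 0.0488.

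Clec4g and Fcgr2b, the members with the highest level per length, were not called with age. Clec4g stood at 25.8, 24.7, 37.4, 41.3 and 35.9 CPM in young WT 1, 2, 3, 4 and 6, at 43.5, 43.3, 40.6, 20.3 and 27.3 CPM in old WT 1, 4, 5, 7 and 10, and at 38.0, 40.3, 37.3, 36.3 and 36.5 CPM in old KO 1, 2, 4, 5 and 6. Fcgr2b stood at 25.9, 24.1, 53.2, 50.5 and 44.1 CPM in young WT 1, 2, 3, 4 and 6, at 57.0, 52.7, 44.4, 31.3 and 33.2 CPM in old WT 1, 4, 5, 7 and 10, and at 52.3, 44.0, 40.3, 43.2 and 47.0 CPM in old KO 1, 2, 4, 5 and 6. Both genes split the WT libraries the same way: young WT 1 and 2 and old WT 7 and 10 were low, and the other 6 WT libraries were higher than those 4. The log2 fold change with age was 0.09 for Clec4g (95% interval -0.31 to 0.48, adjusted p = 0.785) and 0.15 for Fcgr2b (-0.31 to 0.60, adjusted p = 0.673). Whether the change of either differed from that of Stab1, Stab2 or Lyve1 was not tested.

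The 2 growth factor receptor genes had log2 fold changes near that of Stab1 with a wider spread. Kdr stood at 40.7, 39.7, 81.5, 66.7 and 59.5 CPM in young WT 1, 2, 3, 4 and 6, at 54.0, 55.1, 43.2, 30.7 and 26.2 CPM in old WT 1, 4, 5, 7 and 10, and at 36.6, 42.5, 36.1, 33.1 and 40.6 CPM in old KO 1, 2, 4, 5 and 6. Tek stood at 9.48, 8.58, 18.6, 15.7 and 13.5 CPM in young WT 1, 2, 3, 4 and 6, at 12.5, 12.7, 8.32, 7.18 and 6.65 CPM in old WT 1, 4, 5, 7 and 10, and at 9.29, 10.6, 7.58, 9.35 and 9.47 CPM in old KO 1, 2, 4, 5 and 6. For both, young WT 3 was the highest library and old WT 10 the lowest, while young WT 1 and 2 lay among the old libraries. The log2 fold change with age was -0.46 for Kdr (SE 0.215, adjusted p = 0.148) and -0.48 for Tek (SE 0.219, adjusted p = 0.141), so neither was called. Both unadjusted edgeR p-values (0.0483 and 0.0449) were under 0.05, as were those of 4705 of the 14258 tested genes.

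The junction genes and Vwf were not called with age either. Cdh5 stood at 19.1, 15.02, 34.0, 29.5 and 27.0 CPM in young WT 1, 2, 3, 4 and 6, at 27.7, 31.1, 16.3, 18.1 and 15.6 CPM in old WT 1, 4, 5, 7 and 10, and at 16.9, 17.9, 15.8, 18.2 and 15.6 CPM in old KO 1, 2, 4, 5 and 6. Pecam1 stood at 18.5, 15.8, 27.6, 22.7 and 21.0 CPM in young WT 1, 2, 3, 4 and 6, at 18.5, 20.6, 14.8, 15.8 and 11.7 CPM in old WT 1, 4, 5, 7 and 10, and at 16.5, 16.5, 16.5, 15.1 and 16.4 CPM in old KO 1, 2, 4, 5 and 6. Both junction genes were highest in young WT 3 and were low in young WT 2 and old WT 10, and their young and old ranges overlapped widely. The log2 fold change with age was -0.20 for Cdh5 (SE 0.216, adjusted p = 0.560) and -0.38 for Pecam1 (SE 0.148, adjusted p = 0.0862). Pecam1 was called without young WT 2 (-0.46, adjusted p = 0.0428) or without old WT 4 (-0.47, 0.0493).

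Vwf had the lowest mean level of the members in young WT and old WT liver, at 122 to 332 counts per library. It stood at 8.74, 6.60, 7.69, 8.44 and 5.35 CPM in young WT 1, 2, 3, 4 and 6, at 6.59, 8.36, 4.59, 7.33 and 4.48 CPM in old WT 1, 4, 5, 7 and 10, and at 5.99, 7.34, 4.88, 10.52 and 8.77 CPM in old KO 1, 2, 4, 5 and 6. The 3 groups overlapped, and the highest Vwf library, old KO 5, was the highest of its group also for Cdh5 and for no other member. The log2 fold change with age was -0.24 (SE 0.216, adjusted p = 0.472). For 0 of the 10 members did the old WT and young WT ranges separate, where 5.67% of all tested genes had every old WT library below every young WT library.

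**Figure D2:**
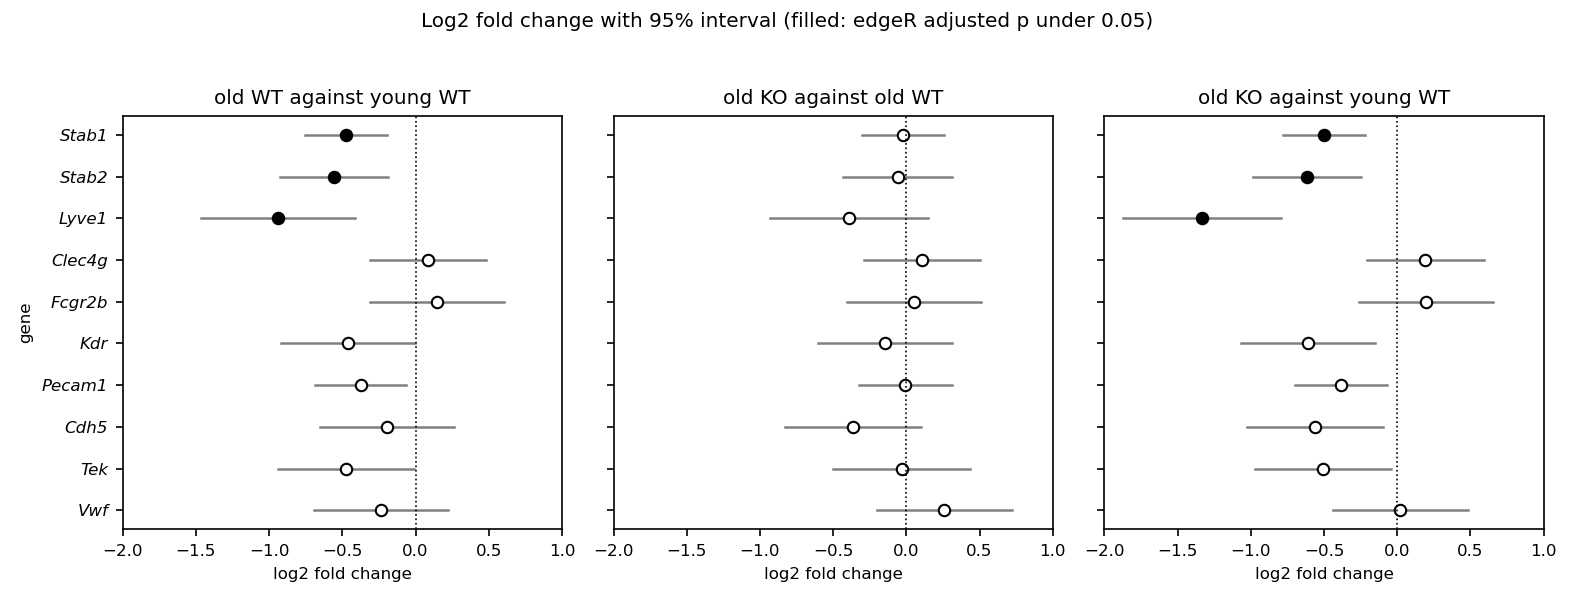
Points give the log2 fold change (x axis) of each marker gene (y axis) in the 3 comparisons with its 95% interval, filled where edgeR's adjusted p was under 0.05. Stab1, Stab2 and Lyve1 are filled in both comparisons with young WT, and no point is filled for old KO against old WT.

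The comparison of old KO with old WT asked whether loss of S6K1 altered these genes at the same age. None of the 10 members was called by edgeR's quasi-likelihood test, in a contrast with few calls overall (0.533% of tested genes). None had an unadjusted p under 0.05, and none was called by DESeq2, by limma voom with or without sample quality weights, or in any of the 15 fits that left out 1 library. Log2 fold changes were below 0 for 7 members and above 0 for 3, with a median of -0.03 beside 0.0008 over all tested genes, and adjusted p-values ran from 0.547 to 0.995.

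The most negative estimates were those of Lyve1 and Cdh5. Lyve1 went from 8.39 ± 1.94 CPM in old WT to 6.39 ± 2.70 CPM in old KO (SD, n = 5), a log2 fold change of -0.39 with a 95% interval of -0.93 to 0.15 (adjusted p = 0.589). Cdh5 went from 21.8 ± 7.13 to 16.9 ± 1.21 CPM, a log2 fold change of -0.36 (-0.83 to 0.10, adjusted p = 0.547), and Vwf had the highest estimate at 0.26 (-0.20 to 0.72, adjusted p = 0.7104). All 5 old KO libraries were below the old WT mean for Cdh5, yet at 15.6 to 18.2 CPM they lay close to old WT 5, 7 and 10 (15.6 to 18.1 CPM). For Stab1 (-0.02, -0.31 to 0.26), Stab2 (-0.06, -0.43 to 0.31) and Pecam1 (-0.01, -0.32 to 0.31) the intervals were narrowest around 0. Those of Clec4g (0.11, -0.29 to 0.51), Fcgr2b (0.05, -0.40 to 0.51), Kdr (-0.15, -0.61 to 0.31) and Tek (-0.03, -0.50 to 0.44) were wider. The intervals of all 10 members included 0 and left room for changes of either sign. No member had separated ranges, against 3.2% of all tested genes. In the same contrast, 7 of 12 Kupffer cell and macrophage genes fell (2 were called under limma voom), and a difference between the 2 lists was not tested.

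Old KO differs from young WT in both age and genotype, and the comparison shares the young WT libraries with the contrast of age. The 3 members lower in old WT were also lower in old KO: Stab1 at -0.50 (SE 0.133, adjusted p = 0.0138), Stab2 at -0.62 (SE 0.175, adjusted p = 0.0190) and Lyve1 at -1.33 (SE 0.255, adjusted p = 0.00200). edgeR called 23.3% of all genes in this comparison and 11.3% as lower. For these 3 the ranges also separated, which 6.56% of all tested genes did in this direction, but by little: the highest old KO library lay at 40.5 CPM against a lowest young WT of 42.2 CPM for Stab1, at 47.1 against 47.4 CPM for Stab2 and at 11.1 against 11.2 CPM for Lyve1. Lyve1 fell by 60.3% in the fitted level, and 4 of the 5 old KO libraries were at or below 5.91 CPM. Stab2 was not called without young WT 3 (-0.49, adjusted p = 0.0531).

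Of the other 7 members against young WT, Kdr came closest to the threshold, at -0.61 (SE 0.216, adjusted p = 0.0525). Kdr was called under DESeq2 (adjusted p = 0.0272), with upper quartile scaling (0.0480), when the old WT libraries were left out of the fit (0.0346), and without young WT 1 (0.0358), young WT 2 (0.0308), old WT 7 (0.0454) or old WT 10 (0.0353). Pecam1 had a log2 fold change of -0.38 (adjusted p = 0.0724) and was called without young WT 2 (0.0321) or old WT 10 (0.0462). Cdh5 stood at -0.56 (adjusted p = 0.0741) and was called under DESeq2 (0.0475) and without young WT 2 (0.0263). Tek (-0.51, adjusted p = 0.106), Vwf (0.02, 0.952), Clec4g (0.19, 0.489) and Fcgr2b (0.20, 0.539) were not called in any of these fits.

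Single libraries carried much of the variation within WT groups. Young WT 3 and 4 were above the 15-library median for 10 of 10 members, old WT 4 for 9 and old WT 1 for 8, whereas old WT 10 was above it for 0 and old WT 7 for 1. Young WT 2 was the lowest of its group for 8 members, and old WT 10 for 7. The summed level of the 10 ran from 236 to 424 CPM in young WT and from 190.0 to 328 CPM in old WT, so the lowest young WT library was below the 3 highest old WT libraries.

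**Figure D3:**
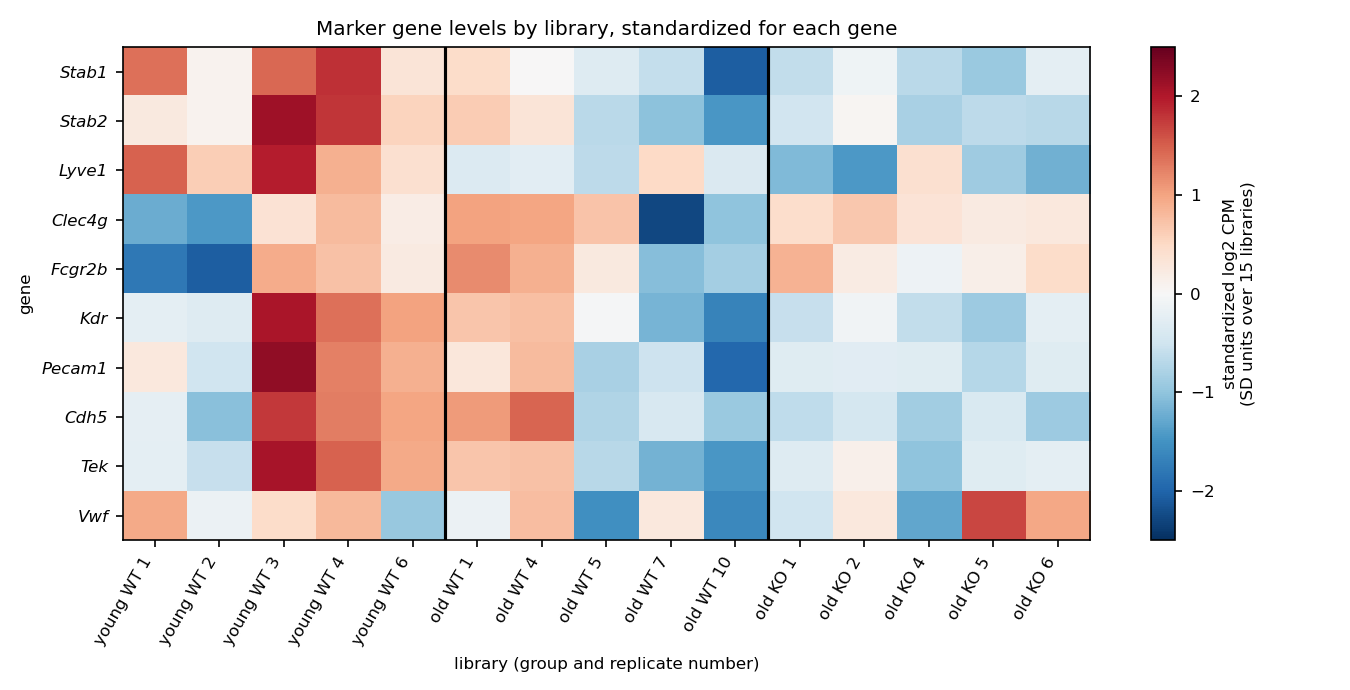
Colour gives the log2 CPM of each marker gene (rows), standardized over the 15 libraries (columns, grouped by black lines), in SD units. Young WT 3 and 4 are red for all 10 genes, old WT 10 is blue for all 10, and in the old KO columns 8 genes lie between -1.01 and 0.86 SD while Lyve1 reaches -1.43 SD and Vwf 1.66 SD.

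The old KO libraries were far more alike. Their summed level ran from 242 to 271 CPM only. The SD of log2 CPM in old KO was 0.0562 for Pecam1, 0.0608 for Clec4g, 0.103 for Cdh5, 0.105 for Stab1, 0.135 for Stab2, 0.141 for Fcgr2b, 0.143 for Kdr and 0.172 for Tek. The same 8 genes had SDs of 0.242 to 0.543 in young WT and 0.304 to 0.490 in old WT. Lyve1 (0.507) and Vwf (0.433) did not share this, and for them the old KO SD was the largest of the 3 groups. In all, 8 of 10 members had their smallest SD in old KO, beside 35.8% of the 7999 tested genes with a mean of 5 to 100 CPM. Over those 7999 genes the median SD was 0.177 in young WT, 0.152 in old WT and 0.155 in old KO, so these 8 members were above the median of their level range in both WT groups and, except Tek, below it in old KO. Counting error alone gives a coefficient of variation of 2.35 to 6.86% in young WT and 3.02 to 8.39% in old KO. The observed coefficient of variation was at least 2.77 times that in every member in the WT groups, but in old KO it was 0.756 times for Pecam1 (3.81% observed), 1.30 times for Clec4g (4.29%), 1.45 times for Cdh5 and 1.73 times for Tek, so for these 4 the old KO spread was near what counting gives. Other endothelial lists, described below, shared this in part. Their spread is given as the SD of the list's mean log2 CPM in young WT, old WT and old KO. It was 0.298, 0.277 and 0.0341 for other sinusoidal genes and 0.213, 0.249 and 0.0603 for other pan-endothelial genes. For large-vessel genes it was 0.213, 0.192 and 0.283, and for VEGF and angiopoietin genes 0.154, 0.114 and 0.139. The smallest SD in old KO was not particular to endothelial lists. It was 0.318, 0.255 and 0.165 for hepatocyte genes and 0.530, 0.559 and 0.302 for Kupffer cell and macrophage genes. Stellate cell, leukocyte, platelet, bile duct and lymphatic lists did not have their smallest SD in old KO. Most members moved together in WT libraries, so the 8 are not separate observations. The spread was not tested, and the fit used for the calls assumed a common spread for the 3 groups.

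Levels were also set relative to Cdh5 in the same library. Cdh5 was itself lower in old KO, at a log2 fold change of -0.36 against old WT and -0.56 against young WT (not called in either), and a low Cdh5 lifts every ratio of its library. Over 14165 tested genes the median log2 ratio to Cdh5 was higher by 0.20 in old WT than in young WT, by 0.31 in old KO than in old WT and by 0.50 in old KO than in young WT. The log2 ratio of Fcgr2b to Cdh5 was 0.65 ± 0.13 in young WT, 1.03 ± 0.28 in old WT and 1.42 ± 0.18 in old KO (SD, n = 5). That of Clec4g was 0.44 ± 0.21, 0.68 ± 0.43 and 1.16 ± 0.10, and for both genes every old KO library was above every young WT library, which held for 11.8% of all tested genes. In CPM, without division by Cdh5, the 2 genes differed by 0.05 and 0.11 on the log2 scale between old KO and old WT, so most of that step in their ratios is the Cdh5 term. Lyve1 had lower mean ratios in both old groups, at -0.63 ± 0.53, -1.34 ± 0.55 and -1.48 ± 0.57. Stab1 (1.12, 0.83 and 1.13), Stab2 (1.34, 0.98 and 1.26), Kdr (1.21, 0.94 and 1.16), Tek (-0.92, -1.20 and -0.87), Pecam1 (-0.20, -0.39 and -0.06) and Vwf (-1.72, -1.78 and -1.22) all had their lowest mean ratio in old WT. These log2 ratios are a description with no test, and each shares the Cdh5 value of its library, so a high Cdh5, as in old WT 1 and 4, lowers all ratios of that library.

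**Figure D4:**
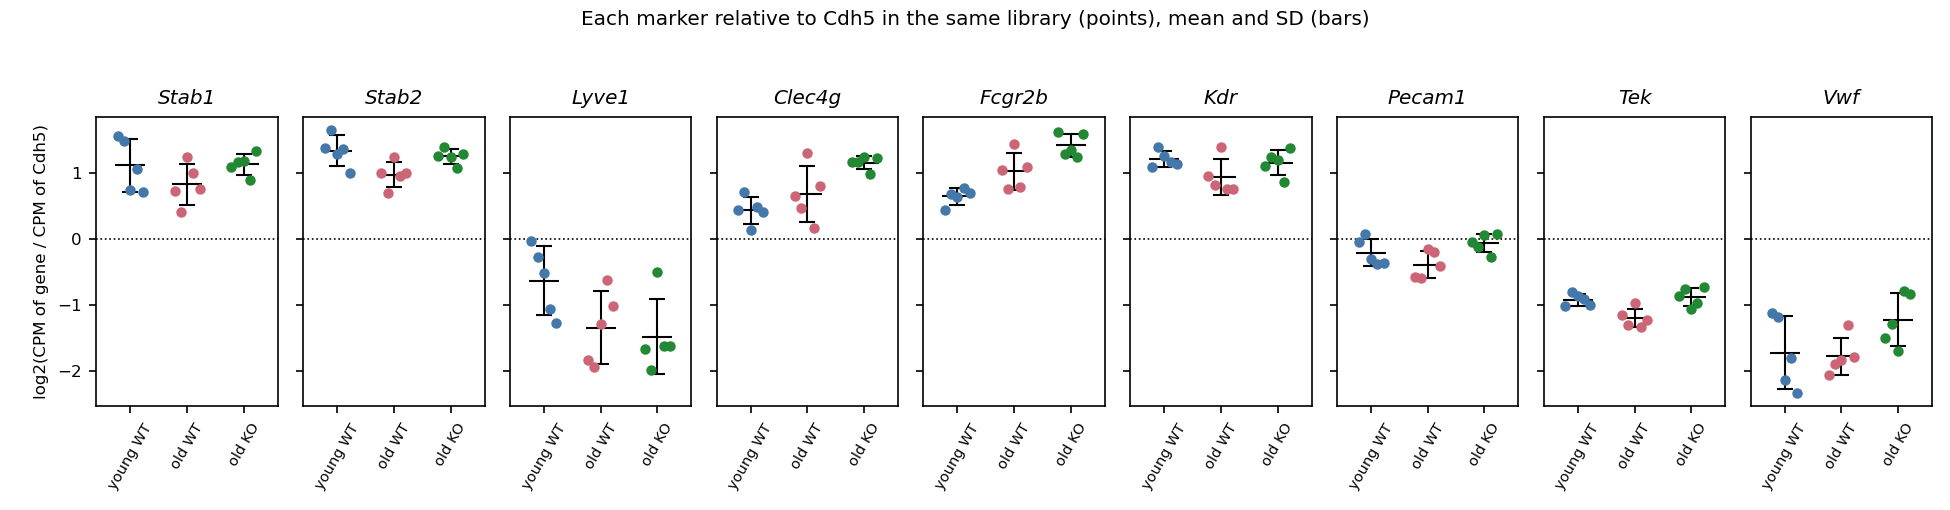
Each panel plots the log2 ratio of a marker gene to Cdh5 (y axis, CPM over CPM in the same library) for the 15 libraries by group, with mean and SD. Every old KO point of Clec4g and Fcgr2b is above every young WT point, as for 11.8% of all tested genes, the mean of Lyve1 is lower in both old groups, and 0 means a level equal to that of Cdh5.

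The genes whose profile over the 15 libraries was most like the standardized mean of the 10 members were themselves endothelial. Likeness was measured as the mean absolute difference of standardized log2 CPM, which had a median of 1.12 over 12115 other genes with at least 1 CPM. The closest was Mmrn2, an endothelial matrix gene, at 0.146. Ptprb, the phosphatase that acts on Tie2 and VE-cadherin, followed at 0.208, then the coagulation factor gene F8 at 0.259, the adrenomedullin receptor gene Calcrl at 0.277 and the adhesion receptor gene Eltd1 (now Adgrl4) at 0.298. None of these 5 was called with age (log2 fold changes of -0.54, -0.59, -0.61, -0.34 and -0.32, adjusted p from 0.0593 to 0.306) or between old KO and old WT (-0.23 to 0.06). Of the 10 genes next in order, named after their values were seen, 4 were called lower with age, beside 8.91% of all tested genes. They were Amotl1 (-0.46, adjusted p = 0.0319), Pxdn (-0.68, 0.0123), Flt1 (-0.60, 0.0178) and Gpr116 (-0.87, 0.00237). The order rests on the members' own profile in these same libraries, which had a median log2 fold change of -0.42 with age. Lower levels with age are therefore built into it, and the count is a description only.

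Wider endothelial lists were read against the 18.8% of all tested genes called with age by edgeR. Over all 14258 tested genes, 4705 had an unadjusted edgeR p under 0.05 with age, DESeq2 called 3249 and limma voom 2753. Of 20 other sinusoidal endothelial genes none was called by edgeR (5 at an unadjusted p under 0.05, 1 called by DESeq2, 2 by limma voom), 17 had a log2 fold change below 0, and the median was -0.26. Without old WT 7, 2 of these 20 were called. Of 26 other pan-endothelial genes, 2 fell and 1 rose, with a median of -0.23, and 18 were below 0. At an unadjusted p under 0.05 there were 8 of the 26, DESeq2 called 5, and without old WT 7 edgeR called 2. The largest fall was that of Flt1, the VEGF receptor that limits signalling through the Kdr product, from 14.1 ± 3.03 to 9.26 ± 2.05 CPM (log2 fold change -0.60, SE 0.162, adjusted p = 0.0178). The rise was that of S1pr1, the sphingosine-1-phosphate receptor gene, from 48.7 ± 12.0 to 83.6 ± 12.8 CPM (0.78, SE 0.177, adjusted p = 0.00705).

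A further list held large-vessel genes and those of capillarization, the loss of sinusoidal character. Of 18 such genes 14 were tested, 3 rose and 1 fell with age, 10 estimates were above 0 and 4 below, and the median log2 fold change was 0.19, beside 0.008 over all tested genes. Without old WT 7 the count was 2 in all. Cd34, which marks capillary endothelium and blood progenitors, rose from 1.22 ± 0.225 to 2.55 ± 0.643 CPM (1.06, SE 0.332, adjusted p = 0.0357). Thbd, encoding the anticoagulant thrombomodulin, fell from 6.49 ± 2.53 to 2.98 ± 0.197 CPM (-1.13, SE 0.273, adjusted p = 0.0103). Of the ligands and receptors around Kdr and Tek, 13 of 14 were tested, 2 rose and 1, Flt1, fell, with a median of 0.35, while DESeq2 called 7 and edgeR 5 without old WT 7. Angpt1, the activating ligand of Tie2, rose from 1.04 ± 0.229 to 2.85 ± 0.791 CPM (1.46, SE 0.297, adjusted p = 0.00408). The receptor gene Tek had a log2 fold change of -0.48 and was not called, and a difference between the 2 genes was not tested.

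With genotype, no gene of these 4 endothelial lists was called by edgeR. At an unadjusted p under 0.05 there were 0 of 20 sinusoidal, 1 of 26 pan-endothelial, 2 of 14 large-vessel and 1 of 13 ligand and receptor genes. DESeq2 called 2 of the large-vessel genes and limma voom with sample quality weights 1, and both called 0 in the other 3 lists. Over all 14258 tested genes, 1661 had an unadjusted edgeR p under 0.05, DESeq2 called 309 and limma voom with sample quality weights 188. Median log2 fold changes were 0.08, 0.03, -0.04 and -0.03 in that order.

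Markers of other cells that can carry member transcripts were summed in the same libraries. The 12 Kupffer cell and macrophage genes summed to 233 to 491 CPM in young WT, 278 to 666 CPM in old WT and 160 to 239 CPM in old KO, and all 12 passed the filter. With age the estimates of 10 of the 12 were above 0, with a median log2 fold change of 0.39, while the 1 gene called by edgeR went the other way: Cd163, a haemoglobin scavenger receptor gene, at -1.86 (SE 0.572, adjusted p = 0.0336). DESeq2 called 4 of the 12, limma voom 3 and limma voom with sample quality weights 6. In old KO against old WT 7 fell, of which Cd5l, a secreted macrophage protein gene, had the largest change (102.7 ± 36.6 to 37.0 ± 4.70 CPM, log2 fold change -1.47, SE 0.263, adjusted p = 0.0247), and the count was 4 without old WT 7, 9 under DESeq2 and 2 under limma voom. Young WT 1 and 2, low in Fcgr2b and Clec4g, were also the lowest young WT libraries in the macrophage sum (271 and 233 CPM against 427 to 491 CPM), a match that did not extend to old WT, where old WT 5 was lowest. The part of macrophages in the level of Fcgr2b was not tested.

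Pan-leukocyte, B and T cell genes summed to 22.9 to 46.7 CPM in young WT, 42.4 to 67.6 CPM in old WT and 22.1 to 43.0 CPM in old KO. With age 3 of 9 rose, the largest change being that of the B cell gene Ms4a1, from 0.599 ± 0.292 to 1.92 ± 1.33 CPM (1.70, SE 0.520, adjusted p = 0.0324), and 1 without old WT 7. For genotype edgeR called 0 of 9, with 5 at an unadjusted p under 0.05 and 2 called by DESeq2. Over all 14258 tested genes the last 2 counts were 1661 and 309. Platelet genes, which bear on Vwf and Pecam1, summed to 9.96 to 17.1, 7.07 to 10.3 and 6.64 to 8.97 CPM, and 5 of 10 passed the filter. With age Ppbp, a platelet chemokine gene, rose (0.209 ± 0.120 to 0.665 ± 0.309 CPM, 1.64, SE 0.427, adjusted p = 0.0152), and Itgb3, the integrin gene of platelets and endothelium, fell (8.23 ± 2.59 to 3.94 ± 0.552 CPM, -1.07, SE 0.192, adjusted p = 0.00206). The part of blood cells in the levels of Pecam1, Fcgr2b and Vwf was not tested.

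**Figure D5:**
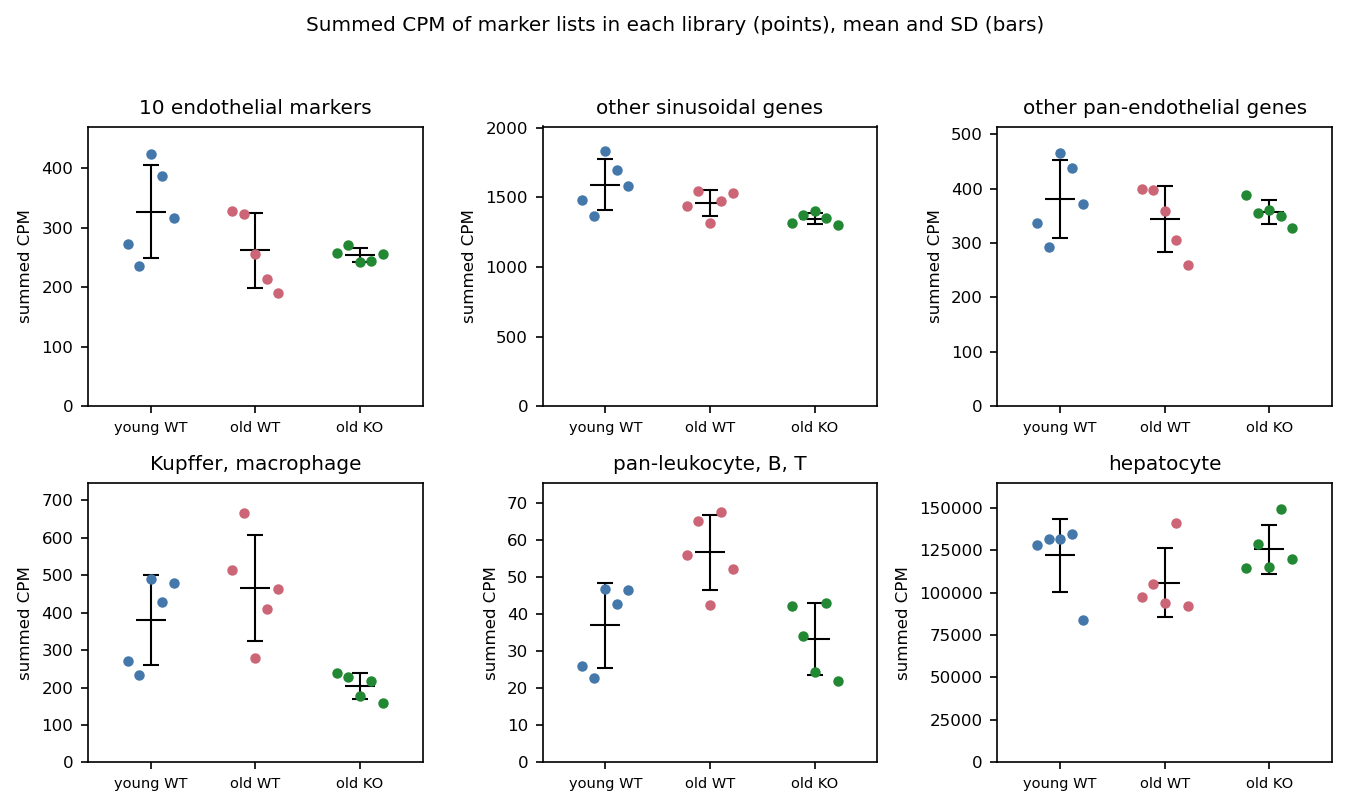
Points give the summed CPM (y axis, from 0) of 6 marker lists in each of the 15 libraries by group, with mean and SD as bars. The 10 endothelial markers and the 2 wider endothelial lists overlap between the old groups, whereas the Kupffer cell and macrophage sum of each old KO library is below that of each old WT library. In old WT, Cd36 (480 CPM) and Ctsl (557 CPM) make up most of the mean sinusoidal sum of 1461 CPM. Their log2 fold changes with age have opposite signs (1.09 and -0.62, neither called).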

How the data were processed

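Whole-liver RNA from 15 female mice was sequenced by the authors with a stranded mRNA kit and single-end 50-base reads. Reads were mapped to mm9 with TopHat2 (2.0.11 per the submitters' processing notes) and counted per gene with HTSeq; the annotation and the strand setting of the counting are not given in the sources used here. The authors deposited whole-number raw read counts for 37991 Ensembl genes, and those counts were used as deposited. Columns were assigned to mice by the sample titles.

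Genes passing filterByExpr (14258) were scaled by TMM and tested with edgeR 4.0.16 (R 4.3.3), glmQLFit and glmQLFTest, all 15 libraries in 1 fit with group as the only term, and p-values were adjusted by Benjamini-Hochberg over all genes tested. The threshold was an adjusted p of 0.05. SEs were taken from the log2 fold change and its F value, and 95% intervals from the fitted degrees of freedom. Log2 CPM used a prior count of 2. RPKM used the exon union length of each gene. Between 30 pairs of mice of the same group, the chi-square per degree of freedom was 19.7 to 129, so no library was counted as a copy of another. Members had 109 to 2556 counts per library, and counting error was computed from those counts as a coefficient of variation per group.

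Alternatives were RLE and upper quartile scaling, no filter, DESeq2 1.42.0, limma 3.58.1 voom, the 10 libraries of a contrast alone, the replicate number as a block, and each library left out in turn. Limma voom with sample quality weights was added after seeing the data. The edgeR, DESeq2 and limma voom fits with group as the only term were tried on simulated counts first. The fits with sample quality weights or the replicate block were not.

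The members and gene lists were chosen with earlier results of these data known. Named were all members, the called gene with the largest rise and fall of each list with age and with genotype, and the 5 genes nearest in profile to the members' mean. Of 147 list entries 143 matched by symbol and 4 by a RefSeq synonym.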

Additional observations from a re-analysis of the deposited data

Results flagged for a closer look

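Within groups of 5 libraries, 3 of 30 group values of the members had a highest or lowest library whose gap to the next, divided by the range of the group, passed Dixon's 95% critical value of 0.71. Chance passes it in about 1 in 20 groups. Lyve1 was high at 11.73 CPM in old WT 7, the library that stood apart on the second principal component, with a gap of 0.724 of the range. Lyve1 was also high at 11.14 CPM in old KO 4, with a gap of 0.792. Without old KO 4 the log2 fold change of Lyve1 was -0.69 between old KO and old WT (adjusted p = 0.276) and -1.63 between old KO and young WT (adjusted p = 0.000479). Pecam1 was low at 15.09 CPM in old KO 5, with a gap of 0.934, in a group whose other 4 libraries lay between 16.43 and 16.52 CPM. The coefficient of variation of all 5 was 3.81%, below the 5.04% that counting error alone gives.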

How the results depend on the processing

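No scaling moved the median log2 fold change of all genes by over 0.1. Of 690 values of the 10 members over 23 alternatives, 30 changed sign, 11 lost their call and 13 gained one. Members called between old WT and young WT were 1 with the replicate block and 2 to 4 with each library left out in turn. In old KO against young WT they were 5 under DESeq2 and 2 to 6 with each library left out. In old KO against old WT they were 0 under every alternative. All genes called between old WT and young WT were 899 with the replicate block and 1748 to 3284 with each library left out. Between old KO and old WT they were 309 under DESeq2, 23 under limma voom, 188 with sample quality weights, 6 with the replicate block and 9 to 108 with each library left out; 2460 to 3829 were called between old KO and young WT. Over 9 pairs of the same replicate number the correlation of deviations from the group means was -0.154 to 0.0770, and 0 were over 0.1. The labels do not say what the numbers mean, so whether they pair the mice was not settled. With the block the age change was -0.28 for Stab1 (adjusted p = 0.274), -0.20 for Stab2 (0.549), 0.10 for Kdr (0.764) and 0.17 for Cdh5 (0.714), and Stab2 between old KO and young WT was -0.43 (0.0878). For genotype the block gave -0.16 for Clec4g and -0.15 for Fcgr2b, limma voom 0.017 for Pecam1 and 0.011 for Tek, and sample quality weights -0.073 for Fcgr2b. Vwf between old KO and young WT was -0.033 under limma voom and -0.12 with sample quality weights. With each library left out, the age change of Clec4g was -0.0051 to 0.24, the change of Vwf between old KO and young WT was -0.13 to 0.14, and changes between old KO and old WT were -0.13 to 0.052 for Stab1, -0.15 to 0.055 for Stab2, -0.10 to 0.086 for Pecam1, -0.13 to 0.088 for Tek, -0.041 to 0.19 for Clec4g and -0.051 to 0.16 for Fcgr2b. Of 759 counts over the other lists 159 moved by over 1.5 times, 7 of 24 list levels moved by over 1 SD when mean log2 CPM replaced the sum, and 0 of 18 ratios to Cdh5 moved by that much with 0.1 CPM added. The causes were not tested. The shallowest member and library had 109 counts. The intervals rest on n = 5 mice per group and on a spread shared by the groups in the fit.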

Other observations

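Lists that bear less directly on the members gave these values. Of 10 stellate cell genes 2 fell with age and none rose; the largest fall was that of Hgf, the hepatocyte growth factor gene, which sinusoidal endothelial cells also express (16.1 ± 3.48 to 9.19 ± 2.98 CPM, log2 fold change -0.80, SE 0.234, adjusted p = 0.0261 by edgeR), and without old WT 7 the count was 0. Of 4 lymphatic endothelial genes 3 were tested, and Reln fell (78.0 ± 10.9 to 52.4 ± 11.8 CPM, -0.57, SE 0.178, adjusted p = 0.0348), with 0 calls without old WT 7. Reln, which stellate cells also make, is on both lists and is 1 of the 2 stellate cell genes counted above as falling. Of 8 hepatocyte genes 2 fell, Cps1, the gene of the urea cycle entry enzyme, with the largest change (7839 ± 2587 to 3256 ± 2023 CPM, -1.27, SE 0.348, adjusted p = 0.0197). Of 6 bile duct genes Spp1, encoding osteopontin, rose (32.2 ± 8.05 to 63.7 ± 26.2 CPM, 0.98, SE 0.286, adjusted p = 0.0262), with 0 calls without old WT 7. Between old KO and old WT none of these 4 lists held a gene called by edgeR, DESeq2 or limma voom, or an unadjusted p under 0.05.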
